A study of Mus musculus with 44 samples.

Results

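Tlr2, Fpr2 and Ccr1 encode receptors that macrophages use to sense microbes and inflammation, and this account describes where the transcription factors NF-kB and IRF3 were reported near them. These 3 genes, of 21887 protein-coding genes on chromosomes 1 to 19, X and Y, were chosen by their peaks in these same data, so their peaks are described here and not tested. Within 100 kb of the 3 gene spans, the authors' deposited lists held 13 of 15489 peaks. Those peaks formed 5 separate regions: 1 near Tlr2, 3 near Fpr2 and 1 near Ccr1.

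TLR2 is a Toll-like receptor that pairs with TLR1 or TLR6 to recognise bacterial lipopeptides, and it signals to NF-kB through the adaptor MyD88. FPR2 is a G protein-coupled receptor for formylated peptides released by bacteria and damaged mitochondria, and it also binds serum amyloid A and annexin A1. CCR1 is a chemokine receptor that guides monocytes and other leukocytes towards ligands such as CCL3 and CCL5. NF-kB is held in the cytoplasm until a stimulus frees it to enter the nucleus, whereas IRF3 is activated by phosphorylation downstream of TLR4 and of nucleic acid sensors.

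The cells were macrophages grown from the bone marrow of C57BL/6 mice with 30 ng/ml M-CSF and collected on day 8 to 10. They were wild type (WT) or Dnmt3a KO, lacking a de novo DNA methyltransferase, and were left untreated or given 10 ng/ml lipopolysaccharide (LPS), a bacterial cell wall component, for 6 hours. The labels do not say how Dnmt3a was deleted, in which cells, or whether replicates came from separate animals, and no expression data were used here that could check the genotype or the cell type. Chromatin was precipitated with an antibody to IRF3 or to NF-kB, whose subunit the labels do not name. Each of the 8 deposited lists merges the replicates of 1 group, 2 for IRF3 in WT with LPS and in untreated KO and 3 for each other list, and the lists held 1169 to 3065 peaks. A merged list has no replicate spread, so no value below has an error and no difference between lists was tested. The sources used here give no read depth. A gene without a peak is one with no peak that passed into the list, and the largest deposited p-value ranged from 0.0529 to 0.0958 between lists.

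The promoters of the 3 genes are shown because every list lacked a peak on them, whereas a neighbouring start site lay inside the region near Ccr1. The sequences are from RefSeq on GRCm38.p6, the assembly named mm10, read 5′ to 3′ along the gene's own strand and ending at the base before the start site. Capitals mark matches to the kappaB consensus, the sequence preferred by NF-kB, searched on both strands. The stretches are chr3:83841609-83841858 (minus strand) for Tlr2, chr17:17887574-17887823 (plus strand) for Fpr2 and chr9:123968693-123968942 (minus strand) for Ccr1.

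Tlr2: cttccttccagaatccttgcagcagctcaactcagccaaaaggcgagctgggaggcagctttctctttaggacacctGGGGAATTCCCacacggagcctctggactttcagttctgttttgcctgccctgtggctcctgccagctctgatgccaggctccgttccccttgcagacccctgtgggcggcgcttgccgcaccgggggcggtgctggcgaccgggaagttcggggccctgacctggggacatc
Fpr2: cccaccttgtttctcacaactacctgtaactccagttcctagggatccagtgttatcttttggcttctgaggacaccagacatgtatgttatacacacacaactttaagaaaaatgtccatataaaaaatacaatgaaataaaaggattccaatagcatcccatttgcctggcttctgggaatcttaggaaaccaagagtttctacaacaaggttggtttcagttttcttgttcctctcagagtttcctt
Ccr1: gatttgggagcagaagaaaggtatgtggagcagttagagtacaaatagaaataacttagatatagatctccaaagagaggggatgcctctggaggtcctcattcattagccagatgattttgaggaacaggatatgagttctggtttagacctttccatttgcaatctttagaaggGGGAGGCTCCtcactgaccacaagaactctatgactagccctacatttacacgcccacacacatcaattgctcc

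The Tlr2 promoter held overlapping kappaB matches beginning 173 and 172 bases before the start site. A further match began 8 bases before the start and ran past the printed stretch. The Ccr1 promoter held 1 match, 74 bases before the start, and the Fpr2 promoter held none. Of 21238 promoter windows of protein-coding genes, each of 300 bases from 250 before the start to 50 after it, 9.25% held a match. The interferon-stimulated response core GAAANNGAAA (3.34% of windows), the AP-1 site TGANTCA (6.99%) and the ETS core GAGGAAG (13.6%), searched on both strands, matched none of the 3 windows. The promoters differed in their content of CpG, the dinucleotide that DNA methyltransferases modify. The Tlr2 window held 11 CpG and the Fpr2 and Ccr1 windows 1 each, against a median of 13.0 over all windows. A match of letters describes the sequence and does not show binding.

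The region near Ccr1 contained the start site of Gm51701, a long noncoding RNA gene annotated at 123925148 to 123928706 on chromosome 9. Its promoter window, chr9:123924898-123925197 on the plus strand with 250 bases before the start and 50 after, is shown because all 6 peaks of the region overlapped it. Capitals here mark 20-base stretches also present, on either strand, in the promoter windows of at least 10 other genes.

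Gm51701: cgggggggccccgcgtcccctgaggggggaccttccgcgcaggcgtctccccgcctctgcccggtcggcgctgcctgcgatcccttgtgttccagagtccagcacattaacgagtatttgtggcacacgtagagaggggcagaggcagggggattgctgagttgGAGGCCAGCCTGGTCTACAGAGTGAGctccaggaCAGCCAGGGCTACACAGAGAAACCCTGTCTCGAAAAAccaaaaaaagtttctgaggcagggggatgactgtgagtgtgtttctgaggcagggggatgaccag

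The most widely shared stretch of this window, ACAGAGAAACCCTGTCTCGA, occurred in the windows of 17 other genes. Stretches of this kind belong to the B1 family of short interspersed repeats of the mouse genome. No 20-base stretch of the Tlr2, Fpr2 or Ccr1 windows occurred in another gene's window. A stretch shared with at least 10 other genes was held by 7.21% of windows of protein-coding genes and 8.01% of windows of all genes. The sources used here do not say how reads mapping to several places were treated, and the part of such reads in the Ccr1 region was not tested. The Gm51701 window held 14 CpG. It also held kappaB matches, not marked in the printed sequence, beginning 248 and 224 bases before the start site. Both lay inside 4 of the 6 peaks, the 3 NF-kB peaks and the IRF3 peak of untreated KO, and outside both IRF3 peaks with LPS. Of 32817 promoter windows, coding and noncoding, 48 were overlapped by a peak of any list (0.146%) and 4 by peaks of at least 6 lists, those of Gm51701, Gm36816, Gm40237 and Gm46074.

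**Figure D1:**
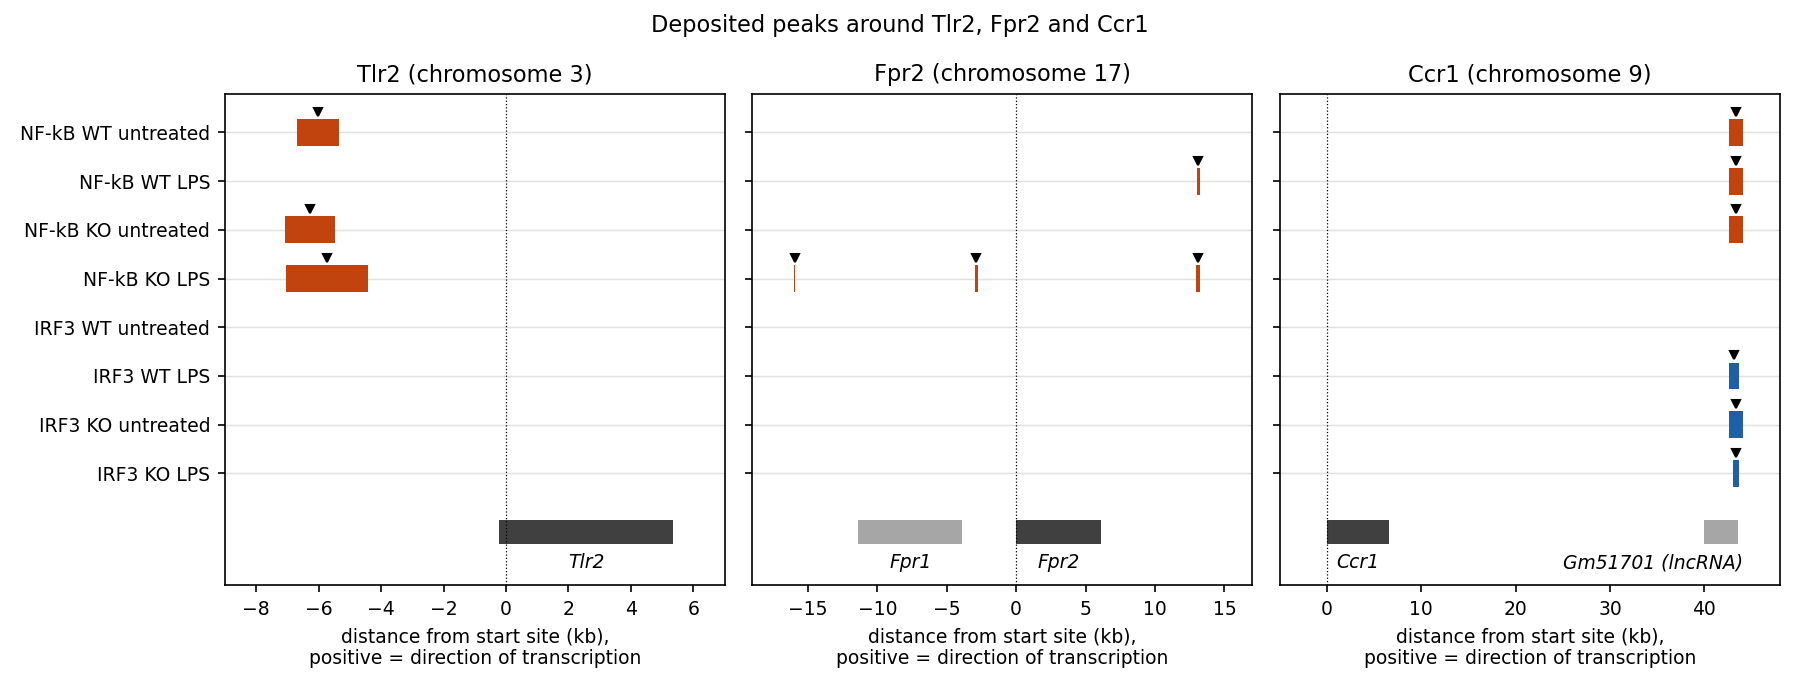
Peaks of the 8 lists (rows) around Tlr2, Fpr2 and Ccr1, against distance from each gene's start site in kb, with positive values in the direction of transcription. Bars are peaks drawn to scale (NF-kB in rust red, IRF3 in blue), black triangles mark their midpoints, and the lowest row shows the genes. Tlr2 had peaks upstream, Fpr2 on both sides with LPS alone, and Ccr1 far downstream.

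Tlr2 spans 83836272 to 83841824 on chromosome 3, on the minus strand. NF-kB peaks lay upstream of it in 3 of the 4 NF-kB lists, and no IRF3 list had a peak within 100 kb. In untreated WT cells the peak ran from 83846939 to 83848300 (1362 bp), 5115 bp from the gene span. In untreated KO cells it ran from 83847073 to 83848674 (1602 bp), 5249 bp from the span. In KO cells with LPS it ran from 83846016 to 83848663 (2648 bp), 4192 bp from the span. The 3 peaks shared 1228 bp, and the KO peak with LPS reached about as far on the distal side as the untreated KO peak but further towards the gene. That peak was wider than 93.2% of the peaks of its list.

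In WT cells with LPS, Tlr2 had no peak, and the nearest NF-kB peak of that list lay 2124 kb away. The nearest IRF3 peaks lay between 909 and 2183 kb away. Tlr2 was the nearest annotated gene to its region, and the next protein-coding gene, Tmem131l, lay 49531 bp from it. The authors' deposited p-value was 0.0635 in untreated WT (rank 1285 of 1462), close to that list's limit of 0.0759. It was 0.00116 in untreated KO (rank 664 of 3065) and 0.00479 in KO with LPS (rank 667 of 2376). The WT peak was lost at a common p-value limit and at equal list length, so on those settings the Tlr2 region was listed in KO cells alone. The deposited q-values were 0.894, 0.121 and 0.257 in the same order, and none was under 0.05.

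A peak within 100 kb was not rare. The share of all protein-coding genes with one was 9.62% for NF-kB in untreated WT, 15.5% in LPS-treated WT, 18.4% in untreated KO and 15.2% in LPS-treated KO. For IRF3 it was 6.47, 8.51, 10.5 and 11.0% in the same order. Exactly the 3 lists of Tlr2 applied to 31 genes (0.142%). With 8 lists many combinations are possible, so each single one is seldom seen. Within 10 kb of the gene, the same 3 lists applied to 5 genes, Tlr2 included. Among the 5605 regions made by joining overlapping peaks of all lists, 15 were in exactly these 3 lists (0.268%), with a median width of 1627 bp against 2659 bp for the Tlr2 region. NF-kB lists alone held 45.0% of all regions.

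Fpr2 spans 17887824 to 17893952 on chromosome 17, on the plus strand, next to the related receptor gene Fpr1, which is transcribed in the opposite direction. NF-kB peaks appeared there with LPS in both genotypes, and neither untreated NF-kB list nor any IRF3 list had a peak within 100 kb. All 4 peaks were narrow. In WT with LPS the single peak ran from 17900855 to 17901034 (180 bp), 6903 bp past the far end of the gene. In KO with LPS a peak at 17900782 to 17901070 (289 bp) contained the whole WT peak, and their midpoints lay 18.50 bp apart.

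The KO list with LPS held another pair of Fpr2 peaks that WT with LPS lacked. One ran from 17884844 to 17885052 (209 bp), between Fpr1 and Fpr2, 2772 bp upstream of the Fpr2 start site and 905 bp upstream of the Fpr1 start site. The other ran from 17871803 to 17871928 (126 bp), 4543 bp from the far end of Fpr1 and 15896 bp from Fpr2. Both lay nearer to Fpr1 than to Fpr2. The shared peak lay nearest to the pseudogene Gm7531, at 5325 bp, with Fpr2 the nearest protein-coding gene. Formyl peptide receptor genes are similar tandem copies, and how well reads can be placed among them was not tested.

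The shared Fpr2 peak ranked 101 of 2376 in KO, with an authors' deposited p-value of 1.87e-05 and q-value of 0.00932. In WT it ranked 831 of 2494, with a deposited p-value of 0.00391 and q-value of 0.244. The peak between the receptors ranked 377 in KO (p-value 0.00102) and the distal one 1265 (p-value 0.0251). The shared peak thus stood in the best 4.25% of its list in KO and the best 33.3% in WT.

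This order was also common among comparable regions. Of the 5605 regions, 101 were in both NF-kB lists with LPS and in no other list (1.80%), and 73 of these 101 (72.3%) had the better relative rank in KO. Their median relative rank was 39.9% in KO and 57.0% in WT. Within these 101 regions the Fpr2 region stood at place 7 in KO and place 20 in WT. Narrowness was common too: 53 of the 101 regions (52.5%) were under 500 bp wide. The pair of Fpr2 peaks without a WT counterpart belonged to 444 regions of the KO list with LPS alone (7.92%), of which 73.6% were under 500 bp. With respect to genes, 244 protein-coding genes (1.11%) had peaks within 100 kb in exactly the lists of Fpr2. In KO with LPS, 179 genes (0.818%) had 3 or more peaks within 100 kb, as Fpr2 did. The nearest peaks of the lists without one near Fpr2 lay 300 to 1758 kb away.

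**Figure D2:**
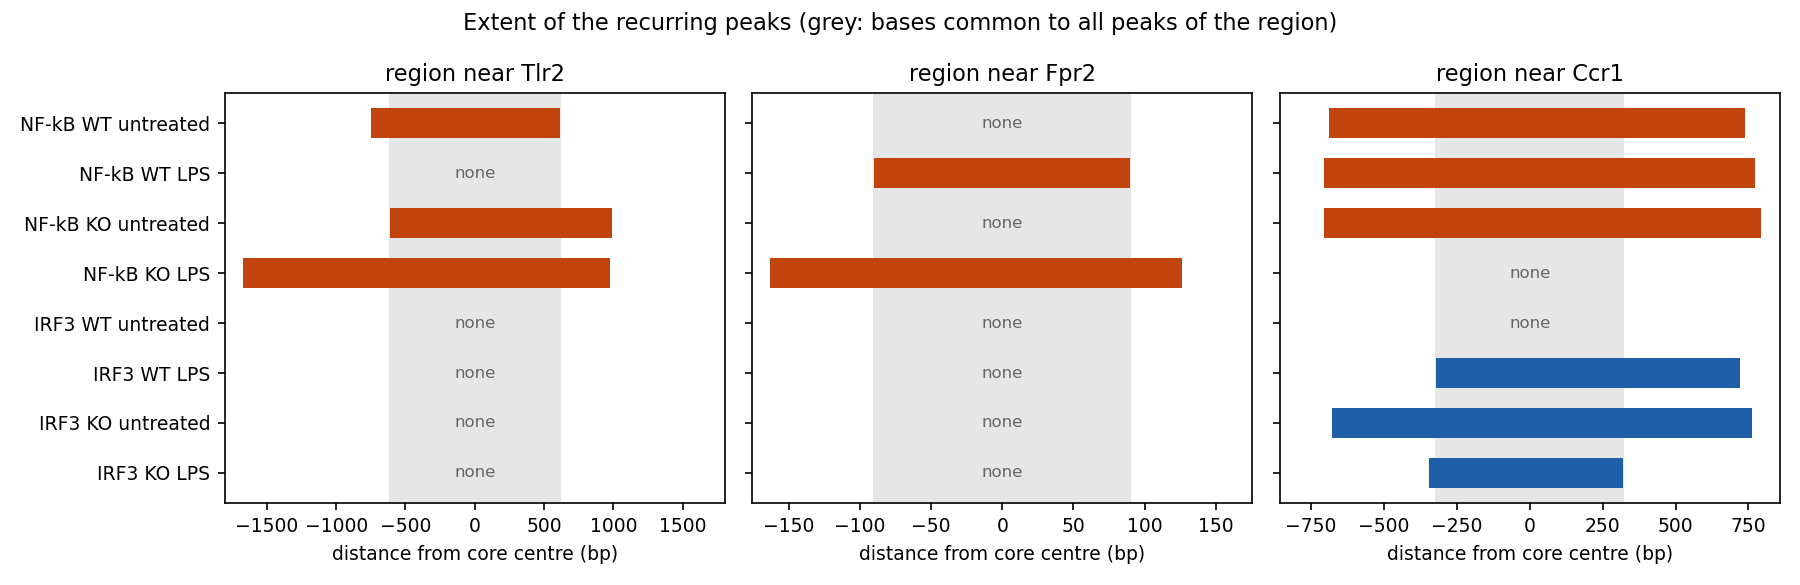
Extent of the peaks of each list (rows) in the 3 regions found in more than 1 list, against distance in bp from the centre of the bases common to all peaks of the region, which are shaded grey. The horizontal scale differs between panels. The Fpr2 peaks span 180 and 289 bp, while those near Tlr2 span 1362 to 2648 bp and those near Ccr1 668 to 1501 bp.

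Ccr1 spans 123962126 to 123968692 on chromosome 9, on the minus strand. It had no peak within 10 kb, but a single region 36015 bp past its far end was listed in 6 of the 8 lists, for both factors. NF-kB had a peak there in untreated WT (123924629 to 123926055, 1427 bp), in WT with LPS (123924612 to 123926090, 1479 bp) and in untreated KO (123924611 to 123926111, 1501 bp). It had none in KO with LPS. IRF3 had a peak in WT with LPS (123924996 to 123926037, 1042 bp), in untreated KO (123924638 to 123926080, 1443 bp) and in LPS-treated KO (123924971 to 123925638, 668 bp). It had none in untreated WT.

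The 6 peaks shared 643 bp, and each covered the Gm51701 start site. The 3 NF-kB peaks and the IRF3 peak of untreated KO nearly coincided, whereas both IRF3 peaks with LPS began closer to that start site. Ccr1 was the nearest protein-coding gene to the region, followed by its paralogue Ccr1l1 at 50319 bp. The IRF3 peak nearest to Ccr1 in untreated WT lay 5869 kb away, and the NF-kB peak nearest to it in KO with LPS lay 288 kb away.

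The strongest Ccr1 peak within its list was that of NF-kB in WT with LPS, which ranked 182 of 2494 with an authors' deposited p-value of 4.04e-05 and q-value of 0.0158. In untreated WT the NF-kB peak ranked 313 of 1462 (p-value 0.00169). In untreated KO it ranked 2738 of 3065 with a p-value of 0.0595, close to that list's limit of 0.0698. The 3 IRF3 peaks ranked 1008 of 1424, 1119 of 1707 and 1031 of 1792, with p-values of 0.0310, 0.0526 and 0.0157. The NF-kB peak was thus in the better part of both WT lists and near the end of the untreated KO list, and the IRF3 peaks stood below the middle of theirs. At a common p-value limit or at equal list length, the untreated KO NF-kB peak was lost and 5 lists kept the region.

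Recurrence in 6 lists applied to 246 of the 5605 regions (4.39%), with a median width of 1620 bp, and 1391 protein-coding genes (6.36%) had peaks within 100 kb in at least 6 lists. The exact combination of Ccr1 was found for 5 regions (0.0892%) and 7 genes (0.0320%). These genes include Ccr1 and also Ccr1l1, Ccr3 and Xcr1, which counted the same region. Regions with peaks of both factors made up 39.3% of all regions and had a median width of 1626 bp, against 437.0 bp for regions in NF-kB lists alone. The Ccr1 region, 1501 bp wide, resembled the former and the Fpr2 regions the latter, whereas the Tlr2 region was wide but in NF-kB lists alone. Width also rose with the number of lists joined, with medians of 369.0 bp in 1 list, 954.0 bp in 2 and 1445 bp in 3. Regions of both factors need at least 2 lists, and factor was not separated from the number of lists.

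**Figure D3:**
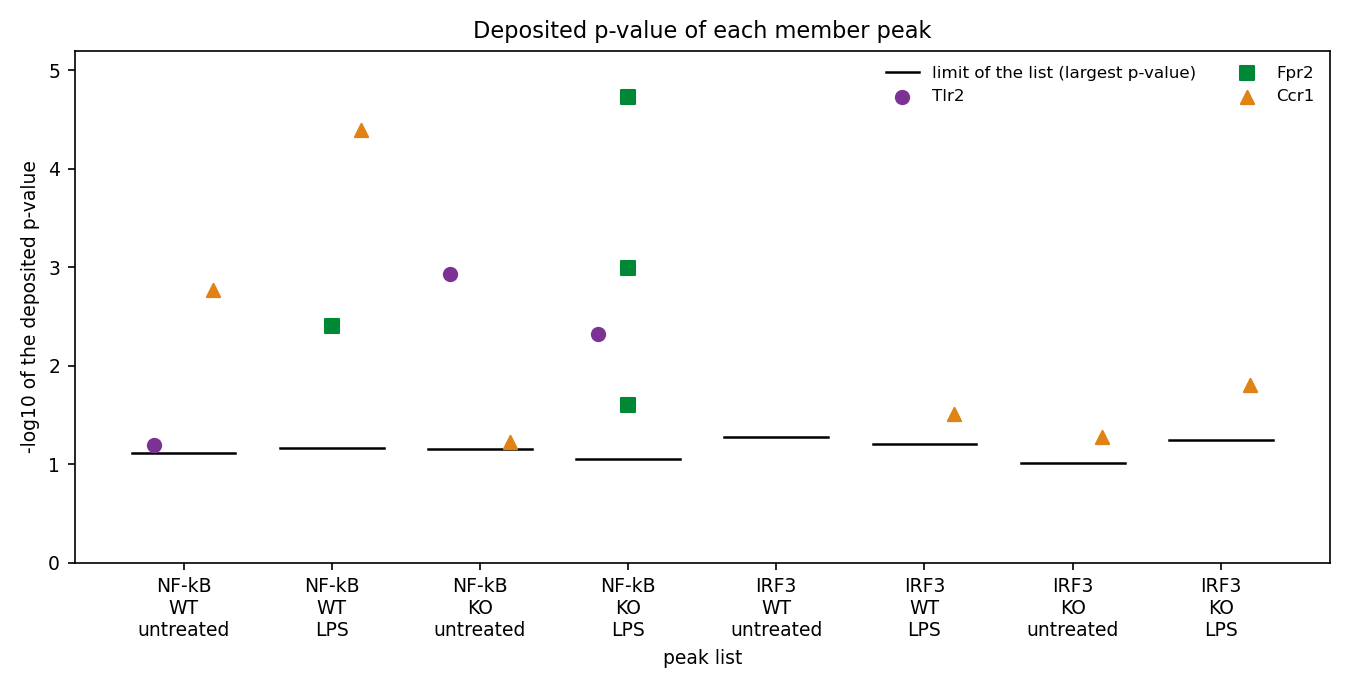
Deposited p-value of each peak near Tlr2 (circles), Fpr2 (squares) and Ccr1 (triangles), as -log10, for each of the 8 lists. Black lines show the largest p-value in the list, so every point of a list lies on or above its line. The highest points are the Fpr2 peak of KO with LPS (1.87e-05) and the Ccr1 peak of WT with LPS (4.04e-05), and the Tlr2 peak of untreated WT lies just above its line.

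The 3 genes therefore showed 3 different patterns across factor, genotype and treatment. With LPS, Fpr2 had NF-kB peaks in both genotypes, Tlr2 in KO alone and Ccr1 in WT alone. Without LPS, Tlr2 and Ccr1 had NF-kB peaks in both genotypes and Fpr2 in neither. At equal list length or a common p-value limit, however, the untreated NF-kB peaks remaining were that of KO for Tlr2 and that of WT for Ccr1. IRF3 was listed near Ccr1 alone. By side of the gene, the Tlr2 region lay upstream, the Ccr1 region downstream and the shared Fpr2 peak downstream. Across the 100 kb limit there was a wide gap: the farthest peak inside it lay 36488 bp from Ccr1, and the nearest outside it lay 288 kb from Ccr1, 298 kb from Fpr2 and 540 kb from Tlr2.

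**Figure D4:**
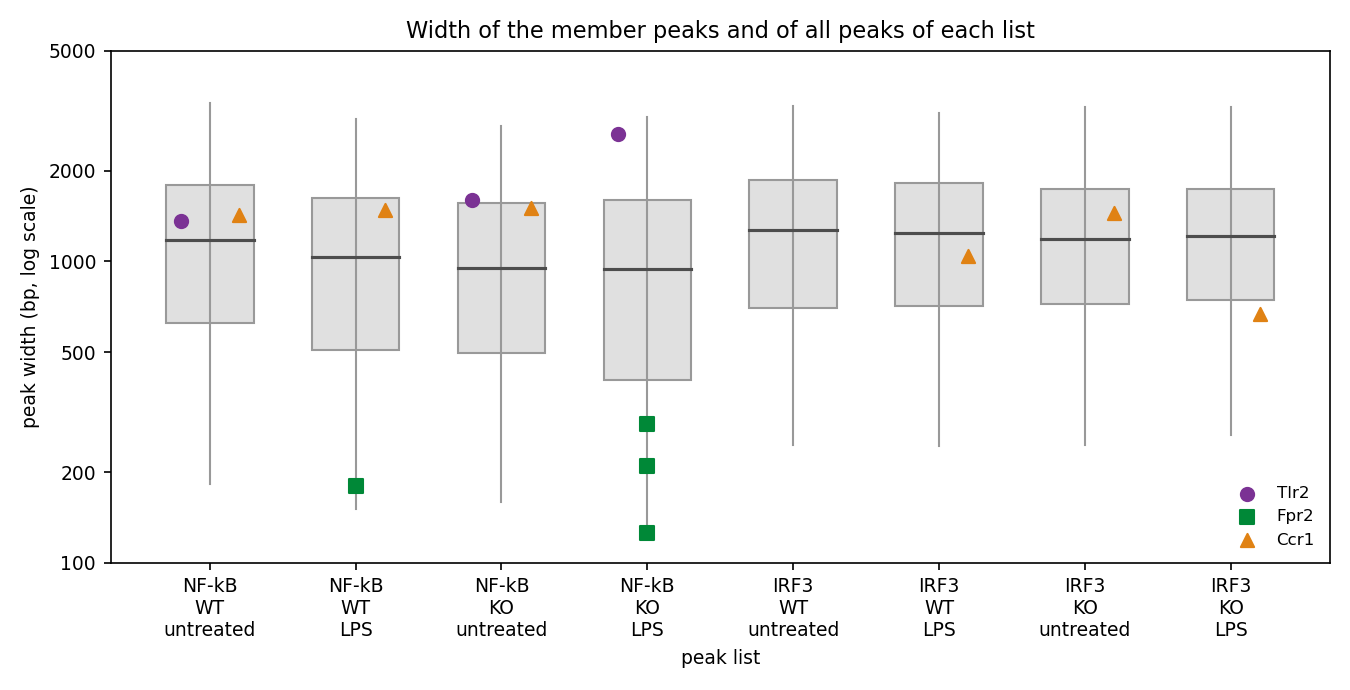
Width in bp (log scale) of the peaks near Tlr2 (circles), Fpr2 (squares) and Ccr1 (triangles) in each of the 8 lists. Grey boxes show the middle range (25 to 75%) of all peaks of the list with the median as a line, and whiskers reach from 5 to 95%. The 4 Fpr2 peaks, 126 to 289 bp wide, lie below the boxes, and the Tlr2 peak of KO with LPS, 2648 bp wide, lies above its box.

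Genes outside these loci with the most similar pattern were ranked by the number of the 8 lists in which presence within 100 kb matched, and then by the mean difference in distance. For Fpr2 the first was Aoah, which encodes the enzyme that removes acyl chains from LPS. It matched in 8 of 8 lists, with NF-kB peaks 6850 bp away in WT with LPS and 5773 bp away in KO with LPS. Best1, an anion channel gene, followed with peaks 6545 and 6294 bp away, and then Gm4312 with peaks 4011 and 3974 bp away. For Tlr2 the first were Hecw1, a ubiquitin ligase gene, Atp2b1, a calcium pump gene, and Pds5b, a cohesin regulator gene. Their mean differences in distance were 3631, 4852 and 4852 bp. Their NF-kB peaks overlapped the genes in untreated WT and untreated KO, whereas the Tlr2 peaks lay outside the gene. In KO with LPS their distances were 3662, 0 and 0 bp. For Ccr1, A730046J19Rik and Ryk, a Wnt receptor gene, matched in 8 of 8 lists and Xkr7 in 7, with mean differences of 599.2, 15636 and 916.0 bp.

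Other genes of these receptor systems were read from 7 fixed lists of 89 genes in all. Within 100 kb, 34 of the 89 (38.2%) had a peak in at least 1 list, against 29.7% of all protein-coding genes. The NF-kB lists gave 9 genes in untreated WT (10.1%), 17 in LPS-treated WT (19.1%), 21 in untreated KO (23.6%) and 17 in LPS-treated KO (19.1%). The IRF3 lists gave 5 (5.62%), 7 (7.87%), 12 (13.5%) and 8 (8.99%). Of the 4 IRF3 shares, those of untreated WT, WT with LPS and KO with LPS were below the share of all genes in the same list. The order of the NF-kB lists depended on the setting: at equal list length, with the 1169 best-ranked peaks of each, the counts were 7, 12, 5 and 13 in the same order. Untreated KO then had the lowest count. KO with LPS had more genes than untreated KO also within 10 kb (9 and 5), beside 3.97 and 4.95% of all protein-coding genes. With a q-value under 0.05 the counts were 6 and 1. The 6 were Fpr1, Fpr2, Fpr3, Saa1, Saa2 and Saa3, which counted only the Fpr2 peak shared with WT and a peak near Saa1. In both settings Fpr2, chosen by its peaks, was counted. No share of all genes was taken at equal list length or at that q-value limit. Tlr2, Fpr2 and Ccr1 are among the genes counted, and neighbouring genes can count the same peak.

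**Figure D5:**
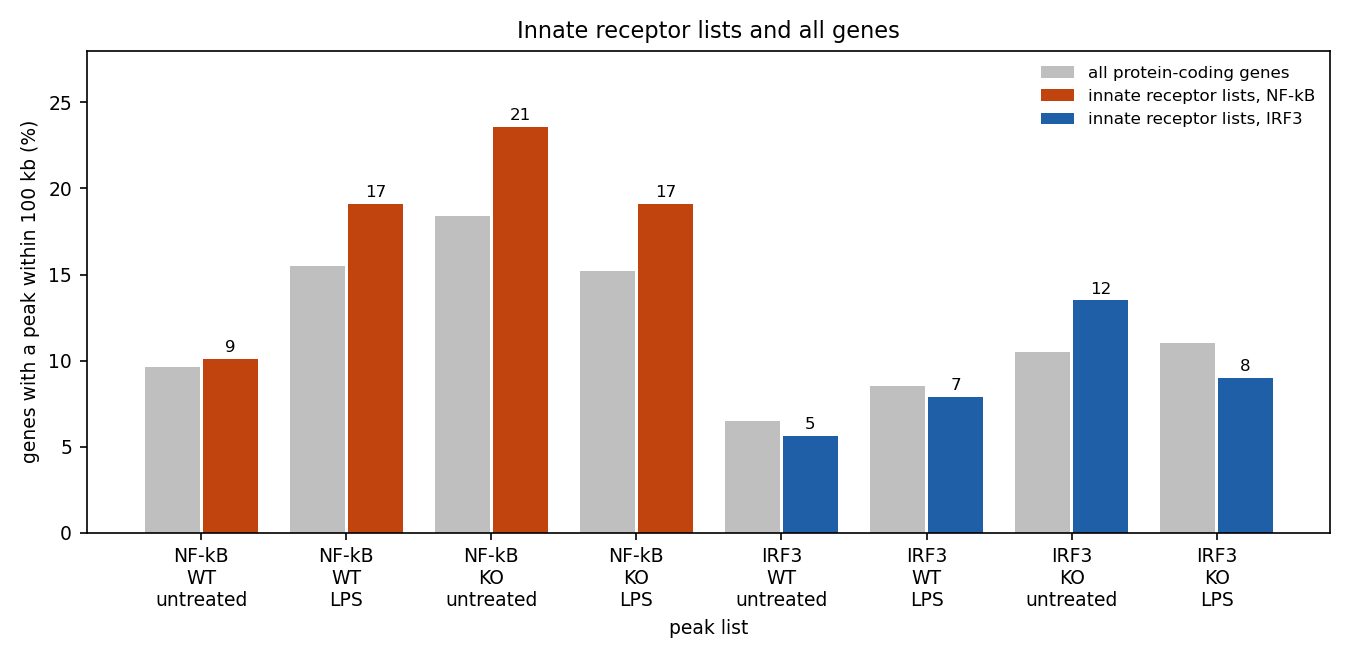
Percentage of genes with a peak within 100 kb in each of the 8 lists, for all protein-coding genes (grey) and for the 89 genes of the innate receptor lists (rust red for NF-kB, blue for IRF3), with the number of list genes above each bar. The list bars stand between 5.62 and 23.6% and the grey bars between 6.47 and 18.4%.

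Of the 12 Toll-like receptor genes, 5 had a peak within 100 kb in some list (41.7%), against 29.7% of all protein-coding genes. Tlr2 alone had one within 10 kb. Tlr5, the flagellin receptor gene, had distant peaks in 6 lists, from 60371 to 98413 bp away. Tlr7 and Tlr8, neighbouring genes for sensors of single-stranded RNA, shared a single NF-kB peak of untreated KO. Tlr4, the LPS receptor gene, had a single IRF3 peak 51785 bp away in untreated KO.

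Among 12 co-receptor and adaptor genes, 4 had a peak within 100 kb in some list (33.3%), against 29.7% of all protein-coding genes. Ly96, which encodes the MD-2 partner of TLR4, had NF-kB peaks 867 bp away in untreated KO and 1397 bp away in KO with LPS. Map3k7, which encodes the kinase TAK1, had an NF-kB peak overlapping the gene in untreated KO, ranked 2728 of 3065. Tirap and Tollip were listed in both genotypes and for both factors. Tirap had peaks in 6 lists, 94190 to 98434 bp away, and Tollip in 4 lists, 18578 to 20924 bp away. Of the 7 formyl peptide receptor genes, Fpr1 and Fpr3 had no peak other than those described for Fpr2. Fpr-rs3, which lies elsewhere on chromosome 17, had peaks 82800 to 82929 bp away in 6 lists.

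All 7 genes of ligands and partners of FPR2 had a peak within 100 kb in some list, against 29.7% of all protein-coding genes. The 7 are not separate observations, since the serum amyloid A genes are neighbours and some share a peak. Saa1 and Saa2, which encode serum amyloid A proteins, shared a single 158 bp NF-kB peak in KO with LPS, 2664 and 5831 bp away. Saa3 had a 527 bp peak overlapping the gene in the same list. These peaks were absent from the other 7 lists, and the KO list with LPS was also the one with extra peaks at Fpr2. Of all 5605 regions, however, 444 (7.92%) were in that list alone. The ligand and partner genes were chosen with earlier results of these data known, and a link between these peaks and those at Fpr2 was not tested. The rest of the ligand and partner genes were listed elsewhere. Camp had NF-kB peaks in both WT lists and in untreated KO, but none in KO with LPS. Anxa1 had IRF3 peaks in untreated WT and untreated KO. Alox5 had an NF-kB peak in untreated KO, and Alox15 had NF-kB peaks with LPS in both genotypes.

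Among 24 chemokine receptor genes, 5 had a peak within 100 kb (20.8%) and none within 10 kb, against 29.7 and 8.10% of all protein-coding genes. Of these, Ccr1, Ccr1l1, Ccr3 and Xcr1 counted the same region at Gm51701, so only it and a region 50174 to 50862 bp from Ccr7 lay behind the count. Of the 7 CCR1 ligand genes, Ccl7 and Ccl8 shared the lowest-ranked IRF3 peak of untreated WT (rank 1169 of 1169). Among 20 other innate receptor genes of macrophages, 7 had a peak within 100 kb and 2 within 10 kb, Fcgr1 and Nod1. The shares of all protein-coding genes were again 29.7 and 8.10%, and the difference was not tested. Clec4e, Clec4d and Clec4n, among the 7, counted the same NF-kB peak of untreated KO. Cd163 had NF-kB peaks with LPS in both genotypes, and Fcgr2b had one in KO with LPS. Fcgr1, an Fc receptor gene, had peaks of 2147 to 2733 bp in 8 lists. They lay 9505 to 10185 bp away, within 10 kb in 7 of the 8 lists. Nod1, which encodes a sensor of bacterial peptidoglycan, had peaks of 1188 to 1643 bp in 5 lists, 4121 to 4212 bp away. Nod1 therefore resembled Tlr2 in distance, and in width the untreated Tlr2 peaks, but was listed for both factors. In WT cells its NF-kB peak was listed with LPS alone, whereas that of Tlr2 was listed in untreated cells alone.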

How the data were processed

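Peak positions came from 8 lists deposited by the authors, 1 per factor, genotype and treatment. Of the 44 samples, 22 immunoprecipitated samples stand behind these lists, and 10 bisulfite, 8 ATAC-seq and 4 input samples were not analysed here. Per the submitters' processing notes, coordinates are in mm10 and tools include MACS2 2.1.1, Picard 2.8.0, deepTools 3.5.0 and HOMER 4.9, with no role given. The sources used here name no aligner, peak thresholds or way of merging replicates. The lists' names contain the word chipr, possibly the replicate-combining program ChIP-R, in which case p-values describe agreement of ranks. Each deposited peak carries a score and a signal value without stated normalization, and a deposited p-value and q-value. These served within single lists, where rank followed the p-value and then the signal.

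With Python 3.11.15, pandas 2.3.3 and numpy 2.4.6, distances were taken from the nearer peak edge to the gene span of a GRCm38.p6 table. Peaks overlapping by at least 1 bp were joined into regions. Start sites came from RefSeq promoter windows, which cover 79.9% of protein-coding genes; the Tlr2 start lies 216 bp inside its span. Distance and joining steps were tested on simulated data. Members and lists were chosen with earlier results of these data known. Named genes were the members, protein-coding neighbours nearer to a member's peak, fixed-list genes with a peak within 10 kb (up to 12), and 3 most similar genes per member outside 1 Mb. Further genes were named after their values were seen: the noncoding neighbours and the windows with peaks of at least 6 lists. So were some, not all, of the fixed-list genes with a peak within 100 kb. Alternatives varied the window, peak threshold, width, distance and joining.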

Additional observations from a re-analysis of the deposited data

How the results depend on the processing

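The lists with a peak near Tlr2, Fpr2 and Ccr1 were the same within 50 kb and 200 kb, from peak midpoints and from start sites. Within 10 kb, Ccr1 had 0 lists and 0 regions. With a q-value under 0.05, Tlr2 had 0 lists and 0 regions, Fpr2 1 list (KO with LPS) and 1 region, and Ccr1 1 list (NF-kB, WT with LPS). With peaks under 500 bp alone, Tlr2 and Ccr1 each had 0 lists and 0 regions, and Fpr2 kept both. At equal list length (1169 best-ranked peaks) and at a common p-value limit (0.0529, a setting added after the data were seen), Tlr2 was in 2 lists and Ccr1 in 5. The regions of Fpr2 numbered 2 in place of 3 within 10 kb and at equal list length, where the distal KO peak (rank 1265) was left out. Joining peaks at 50% overlap or across 1 kb left the counts of regions at 1, 3 and 1. The innate receptor counts, in the order NF-kB then IRF3 and, for each, untreated WT, WT with LPS, untreated KO and KO with LPS, were 2, 3, 5, 9, 1, 1, 1 and 2 within 10 kb. They were 4, 7, 11, 10, 2, 2, 4 and 3 within 50 kb and 18, 27, 29, 26, 7, 15, 20 and 20 within 200 kb. With a q-value under 0.05 they were 0, 5, 1, 6, 0, 1, 0 and 1, and with peaks under 500 bp 0, 5, 5, 10, 2, 1, 1 and 0. At equal list length the untreated KO NF-kB count was 5, in place of 21. From start sites, known for 74 of the 89 genes, the untreated WT IRF3 count was 3, in place of 5. Wider windows and fewer peaks change these counts by construction. No paired analysis was possible because each list merges its replicates, and for the same reason no replicate could be left out. The sources used here give no read depth, so a gene without a peak cannot be told apart from one with too few reads.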

Other observations

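Peaks on promoters were few in all lists. Of 21263 promoter windows of protein-coding genes, the NF-kB lists overlapped 2 in untreated WT, 9 in LPS-treated WT, 3 in untreated KO and 13 in LPS-treated KO (0.0611%). The IRF3 lists overlapped 3, 2, 1 and 2 in the same order. Tlr2, Fpr2 and Ccr1, with no peak on their promoters, were in this respect like nearly all genes.

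Of 10 macrophage marker genes, 6 had a peak within 100 kb in some list, against 29.7% of all protein-coding genes, and 3 had one within 10 kb, against 8.10%: Fcgr1, Adgre1, which encodes the F4/80 antigen, and Mertk, which encodes a receptor for dying cells. The Fcgr1 peaks lay close to that limit, 9505 to 10185 bp away. The Adgre1 peak was a 146 bp NF-kB peak overlapping the gene in KO with LPS, in the same list as the Fpr2 peak of 289 bp. The Mertk peak was a 543 bp NF-kB peak overlapping the gene in untreated KO. Of 10 neutrophil marker genes, none had a peak within 10 kb and 5 had one within 100 kb, beside the same shares of all genes. Peak positions do not measure expression, so these counts do not show which cells were present.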
